A study of Homo sapiens with 15 samples.

Results

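Genes of the regulator of G protein signalling (RGS) family were followed in A549 cells exposed to interleukin-13 (IL-13). RGS2 was chosen by its rise in the IL-13 24 h arrays against the control 24 h arrays. Its value in that comparison describes how it was chosen and carries no test here. The other 8 genes (RGS3, RGS4, RGS10, RGS12, RGS14, RGS16, RGS19 and RGS20) were taken with RGS2 as members of its family and have no test in that comparison either. Genes outside these 9 were tested there. The Affymetrix array carries 22 probe sets annotated with 1 of these 9 symbols alone, of 22283 probe sets in all; the array has 11963 such genes. Of the 22, 8 probe sets from 7 genes were bright enough to test (averaging over 6.33 in log2 signal, which is where the middle of the array lies), among 11107 probe sets tested. RGS4 and RGS14 had no probe set over that level.

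A549 is a human lung adenocarcinoma cell line with features of alveolar epithelium, which the labels describe as bronchial. The arrays formed 5 groups of 3, lettered a, b and c. Cells with IL-13 were harvested at 4, 12 and 24 h, control cells at 0 h were labelled as having no treatment, and further control cells were harvested at 24 h, whose labels name no treatment and do not say whether they received a vehicle. No dose of IL-13 or culture protocol is given in the sources used here, and nothing says whether the 3 arrays of a group came from separate cultures, so p-values measure only how far these arrays scatter, and that scatter may be technical. No control arrays at 4 and 12 h were among the 15, so at those times IL-13 and time in culture cannot be told apart.

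RGS proteins act as GTPase-activating proteins: they speed the hydrolysis of GTP by G protein alpha subunits and so shorten the signal from G protein coupled receptors. RGS2 acts mainly on the Gq class, whose alpha subunits activate phospholipase C beta and raise cytosolic calcium, the signal by which muscarinic, histamine and other receptors contract airway smooth muscle. In human airway smooth muscle and epithelial cells RGS2 is known as a gene induced by beta2 agonists and glucocorticoids.

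RGS2 lies on the plus strand of chromosome 1 (chr1:192809039-192812275, RefSeq, GRCh38.p14). The 250 bases before its annotated start (chr1:192808789-192809038) are shown because RGS2 was the member whose level moved most; capitals mark matches to 3 short promoter motifs, and the other letters are in lower case.
RGS2: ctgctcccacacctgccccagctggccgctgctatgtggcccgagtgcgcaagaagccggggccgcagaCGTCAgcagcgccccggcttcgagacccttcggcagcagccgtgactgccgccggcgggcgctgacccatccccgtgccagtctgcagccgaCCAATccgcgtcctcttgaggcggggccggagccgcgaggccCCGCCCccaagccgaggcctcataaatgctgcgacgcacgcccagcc
The capitals are, in order, a match to TGACG (the core of the cAMP response element) read on the minus strand, a CCAAT box, and a match to GGGCGG (the GC box) read on the minus strand. They lie 181 to 177, 89 to 85 and 47 to 42 bases before the start and do not overlap. Both strands were searched, and of 35116 RefSeq promoter windows of the same length 21.2% held TGACG, 32% held CCAAT and 42.6% held GGGCGG. The 2 spacings bound by STAT proteins, TTCNNNNGAA (the STAT6 form, present in 5.38% of windows) and TTCNNNGAA (6.57%), had no match in this window, and neither had TATAAA (10.7%). Of the window's bases, 72.8% were G or C. These matches describe letters only, and no binding was measured.

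The RGS2 probe set, 202388_at, gave deposited signals (linear, arbitrary units) of 169.5, 179.2 and 190.6 at control 0 h. With IL-13 they were 207.7, 213.2 and 229.2 at 4 h, 252.9, 257.7 and 248.5 at 12 h, and 363.8, 411.7 and 381.6 at 24 h. The group means were thus 179.8 ± 10.5 at control 0 h, 216.7 ± 11.2, 253.1 ± 4.61 and 385.7 ± 24.2 at 4, 12 and 24 h of IL-13 (SD, n = 3 each). Every array at 12 h of IL-13 was above every array at 4 h, as for 8.08% of tested probe sets. Every array at 24 h of IL-13 was above every array at 12 h. For that step the share of all probe sets was not counted, and its 24 h arrays entered the choice of RGS2.

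At 24 h the IL-13 arrays measured 363.8, 411.7 and 381.6 in RGS2, against 126.6, 152.6 and 77.9 in the control 24 h arrays, with means of 385.7 ± 24.2 with IL-13 and 119 ± 37.9 in control (SD, n = 3 each). On the scale used for the comparisons, log2(signal + 20) after quantile normalization, the difference was 1.67 ± 0.17 (SE), or 3.17-fold. Its SE takes no account of the choice of RGS2 by this comparison. The RGS2 difference was the 2nd highest of the 11107 differences in that comparison, of which 31 reached 2-fold upward. Signals without overlap and higher with IL-13 were found for 12.5% of the tested probe sets, and 6.4% of them passed an adjusted p of 0.05 in either direction; both shares are background to a comparison that chose RGS2. The value without control 24 h array c, the lowest of the 15, was 1.40, and without control 24 h array b 1.88. Array medians also differed between these groups, at 56.75 to 64.44 with IL-13 and 66.27 to 72.45 in control; the RGS2 difference was 1.58 on the signals as deposited and 1.76 after scaling each array to a common median. In these bulk extracts, a change in the number of cells that express a gene and a change in its RNA per cell cannot be told apart.

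**Figure D1:**
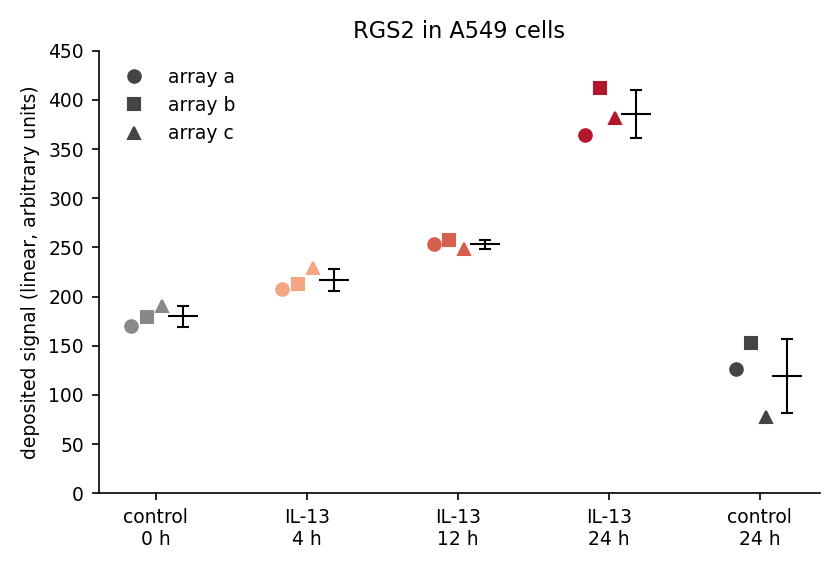
Deposited RGS2 signal (vertical axis, arbitrary linear units) on each of the 15 arrays by group (horizontal axis); circles, squares and triangles are arrays a, b and c, and the bars beside them are the mean ± SD (n = 3). The 3 arrays at 24 h of IL-13 lie between 363.8 and 411.7, above all others, and the control 24 h arrays lie between 77.9 and 152.6, below all others.

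Part of the gap at 24 h lay in the control cells: RGS2 was lower in the control 24 h arrays (126.6, 152.6 and 77.9) than in all control 0 h arrays (169.5, 179.2 and 190.6). The difference was -0.65 ± 0.17 (SE), a 1.57-fold lower level at 24 h, and it depended on the arrays used, at -0.38 without control 24 h array c and -0.86 without array b. These arrays entered the choice of RGS2, so the difference has no test. Of all tested probe sets, 12.2% were lower without overlap in the control 24 h arrays. Against control 0 h in place of control 24 h, the IL-13 24 h level of RGS2 was 1.02 ± 0.17 higher, or 2.03-fold, and it ranked 23rd of 11107. Its IL-13 24 h arrays also entered the choice of RGS2, so this difference has no test either. Both comparisons share the IL-13 24 h arrays.

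The contrast that chose RGS2 did not use the arrays at 0, 4 and 12 h, though earlier results of all arrays were known when the tests were set. Differences among these arrays were tested with limma and the Benjamini-Hochberg adjustment over all 11107 probe sets. At 4 h of IL-13 the RGS2 difference from control 0 h was 0.27 ± 0.17 (SE; 1.2-fold; 95% confidence interval -0.08 to 0.62; limma adjusted p = 0.642). The 3 arrays at 4 h were all above the 3 at 0 h, as were those of 7.37% of the tested probe sets. At 12 h of IL-13 the difference was 0.48 ± 0.17 (1.39-fold; 95% confidence interval 0.13 to 0.83; limma adjusted p = 0.13, unadjusted 0.0103). Higher signals at 12 h without overlap were seen for 11.4% of probe sets. The spread of RGS2 on the log2 scale was 0.49 (SD) among the control 24 h arrays but 0.08, 0.07 and 0.02 at control 0 h, IL-13 4 h and IL-13 12 h, and the main model pools the spread of all 5 groups. Fitted on the 0 h and 12 h arrays alone, the same difference of 0.48 had an SE of 0.11 and a limma adjusted p of 0.0324. Between 12 h and 4 h of IL-13 the RGS2 difference was 0.21 ± 0.17 (95% confidence interval -0.14 to 0.56; limma adjusted p = 0.726), with no overlap of the arrays, as for 8.08% of probe sets higher at 12 h. From 12 h on, the IL-13 24 h arrays were a further 0.54 ± 0.17 higher (1.46-fold), a value with no test.

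From the lowest to the highest group, the order of RGS2 was control 24 h, control 0 h, then IL-13 at 4, 12 and 24 h, with no overlap between any neighbours. In the fit, the neighbouring pairs 4 h and 0 h, and 12 h and 4 h, did not differ beyond their error. Among 11107 tested probe sets 1 had all 5 groups apart in this order (0.009%), and it was RGS2 itself; since the order was read from RGS2, the share is a description. Relative to control 0 h, the RGS2 difference ranked 759th from the top of 11107 at 4 h, 233rd at 12 h and 23rd at 24 h. The 24 h rank uses arrays that entered the choice of RGS2, so these ranks cannot compare early with late times.

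Among the other members of the R4 subfamily, to which RGS2 belongs, no tested probe set passed the threshold in any comparison that was tested. RGS3, which acts on Gi and Gq alpha subunits (chr9:113444730-113597738), had signals on 203823_at of 72.5, 128.6 and 119.1 at control 0 h. They were 145.5, 168.1 and 122.8 at 4 h, 94.2, 111.9 and 90.1 at 12 h, and 123.2, 144.0 and 118.8 at 24 h of IL-13, and 86.1, 109.7 and 152.8 at control 24 h. The IL-13 24 h arrays fell within the range of the control 24 h arrays, with a difference of 0.25 ± 0.19. The 4 h arrays overlapped the control 0 h arrays, with a difference of 0.40 ± 0.19 (limma adjusted p = 0.502, unadjusted 0.0551). The 12 h arrays were all below the 4 h arrays, as for 7.33% of tested probe sets, by -0.49 ± 0.19 (limma adjusted p = 0.358, unadjusted 0.0208). The IL-13 24 h arrays were all above the 12 h arrays, a step for which the share of all probe sets was not counted. Of the 14 RGS probe sets under the brightness filter, 3 (1 each of RGS3, RGS4 and RGS12) were lower without overlap with IL-13 at 24 h than in control at 24 h in deposited signal, and after quantile normalization the RGS4 arrays overlapped. Among the brighter, tested probe sets 16.1% were lower without overlap in deposited signal. The dimmer RGS3 probe set 220300_at went the other way at 24 h, with 26.8, 21.5 and 23.9 with IL-13 against 71.8, 41.0 and 40.2 in control.

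RGS16, an RGS protein of Gi and Gq alpha subunits known from liver, retina and lymphocytes, lies on the same chromosome as RGS2 (chr1:182598623-182604389). Its 209325_s_at signals were 40.5, 77.4 and 14.7 with IL-13 at 24 h and 76.5, 91.7 and 92.6 in control at 24 h. The groups overlapped by 1 array, and the fitted difference was -0.70 ± 0.26 (SE, no test), the lowest of the tested members. It rested on single arrays: leaving out array c of the IL-13 24 h group gave -0.33, and leaving out array b gave -1.03. RGS16 gave 70.8, 59.6 and 65.3 at control 0 h, 67.7, 76.0 and 77.3 at 4 h and 107.6, 67.1 and 64.8 at 12 h of IL-13. Its differences at 24 h were -0.54 ± 0.26 from control 0 h (limma adjusted p = 0.254) and -0.69 ± 0.26 from IL-13 12 h (limma adjusted p = 0.136). Without IL-13 24 h array b these became -0.86 and -1.01 and passed the threshold (limma adjusted p = 0.0462 and 0.0233), and without array c they were -0.16 and -0.31 (0.8 and 0.52). The other RGS16 probe set, 209324_s_at, lay just under the brightness filter and had a difference of opposite sign, 0.22, between IL-13 24 h and control 24 h.

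RGS4, which acts on Gi and Gq alpha subunits and is best known from brain and muscle (chr1:163068871-163076802), was dim throughout. Its probe sets ranged over the 15 arrays from 8.425 to 68.44 for 204337_at, from 12.36 to 38.43 for 204339_s_at and from 1.367 to 3.205 for 204338_s_at. Signals this close to the added constant of 20 leave small differences unresolved.

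The R12 subfamily holds RGS10, a small protein with little beyond its RGS domain, and the larger scaffold proteins RGS12 and RGS14, which also bind Ras-like and inactive Gi proteins. Of the tested probe sets, 204319_s_at of RGS10 (chr10:119499817-119542719) was nearest to RGS2 in profile, with r = 0.45 over the 15 arrays. RGS19 was close behind at 0.429, and the other tested RGS10 probe set, 204316_at, had r = -0.259. The RGS10 signals on 204319_s_at were 271.0, 256.4 and 264.0 at 4 h of IL-13 and 264.0, 302.4 and 272.6 at 12 h, against 244.4, 236.0 and 255.9 at control 0 h. Both IL-13 groups were above control 0 h without overlap, as were 7.37% of tested probe sets at 4 h and 11.4% at 12 h; the differences were 0.12 ± 0.12 at 4 h (limma adjusted p = 0.812) and 0.20 ± 0.12 at 12 h (0.416). At 24 h RGS10 measured 246.8, 276.6 and 190.1 with IL-13 and 229.7, 182.2 and 204.0 in control, a difference of 0.22 ± 0.12 with overlapping arrays. The control 24 h arrays were all below the control 0 h arrays, as for 12.2% of tested probe sets, by -0.26 ± 0.12 (limma adjusted p = 0.233, unadjusted 0.0446). On the other tested RGS10 probe set, 204316_at, they were all above in deposited signal, at 87.5, 89.3 and 94.4 against 75.6, 83.8 and 73.8. So were those of RGS16 on 209325_s_at, and the share of all probe sets in that direction was not counted. After normalization both probe sets overlapped, and the 204316_at difference was 0.03 ± 0.14. On 204319_s_at the difference of control 24 h from control 0 h was -0.42 with each array scaled to a common median, and it passed the threshold (limma adjusted p = 0.0317). That scaling moved the median of all probe sets by -0.145 in the same comparison. The probe set 204316_at ranged from 56.77 to 94.39 and differed by -0.13 ± 0.14 between IL-13 24 h and control 24 h. The RGS10 probe set 214000_s_at stayed between 3.649 and 32.74.

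RGS12 (chr4:3285891-3439913) gave 50.1, 64.9 and 48.3 on 209637_s_at with IL-13 at 24 h and 70.1, 70.4 and 91.3 in control at 24 h. The deposited signals did not overlap, which 16.1% of tested probe sets shared, but the groups overlapped after quantile normalization, where the difference was -0.22 ± 0.24. A dimmer RGS12 probe set, 205823_at, also lay apart at 24 h, with 37.1, 46.4 and 36.6 with IL-13 and 77.9, 65.6 and 65.0 in control (-0.40). The control 0 h arrays of 209637_s_at were uneven, at 106.6, 35.8 and 38.2, so differences from them turned on array a: 0.38 at 4 h of IL-13 (limma adjusted p = 0.66) became 0.74 without it (0.157). With IL-13 the same probe set gave 64.6, 91.1 and 84.0 at 4 h and 55.3, 84.0 and 87.2 at 12 h, all within the range of the control 0 h arrays. The remaining 4 RGS12 probe sets were dim, the brightest value among them being 53.45. RGS14 (chr5:177357924-177372596) was dim on all of its 3 probe sets, which ranged from 15.96 to 56.29, from 2.81 to 54.95 and from 2.605 to 8.6 over the 15 arrays.

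In the RZ subfamily, RGS19, which acts on Gi alpha subunits (chr20:64073181-64079964), and RGS20, which acts on Gz (chr8:53851795-53959303), had 1 tested probe set each, and neither passed the threshold in a tested comparison. RGS19 had signals of 176.8, 253.4 and 240.9 with IL-13 at 24 h and 181.5, 228.6 and 171.4 in control at 24 h, which overlapped, with a difference of 0.23 ± 0.17. The RGS19 means were 206.1 ± 19.8 at control 0 h and 206 ± 29.1, 213.4 ± 55 and 223.7 ± 41.1 at 4, 12 and 24 h of IL-13 (SD, n = 3 each), closer to each other than the arrays of a group. RGS20 gave 145.8, 161.8 and 130.6 with IL-13 at 24 h against 169.1, 147.6 and 156.9 in control. Its difference of -0.03 ± 0.10 had the narrowest interval of the tested members, -0.25 to 0.19. RGS20 averaged 168.3 ± 15.8 at control 0 h and 177 ± 6.58, 160.2 ± 6.77 and 146.1 ± 15.6 at 4, 12 and 24 h of IL-13 (SD, n = 3 each). All RGS20 arrays at 12 h were below those at 4 h in deposited signal, as for 7.33% of tested probe sets. At 24 h of IL-13 RGS20 was -0.16 ± 0.10 from control 0 h (limma adjusted p = 0.42), within the spread of the arrays.

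**Figure D2:**
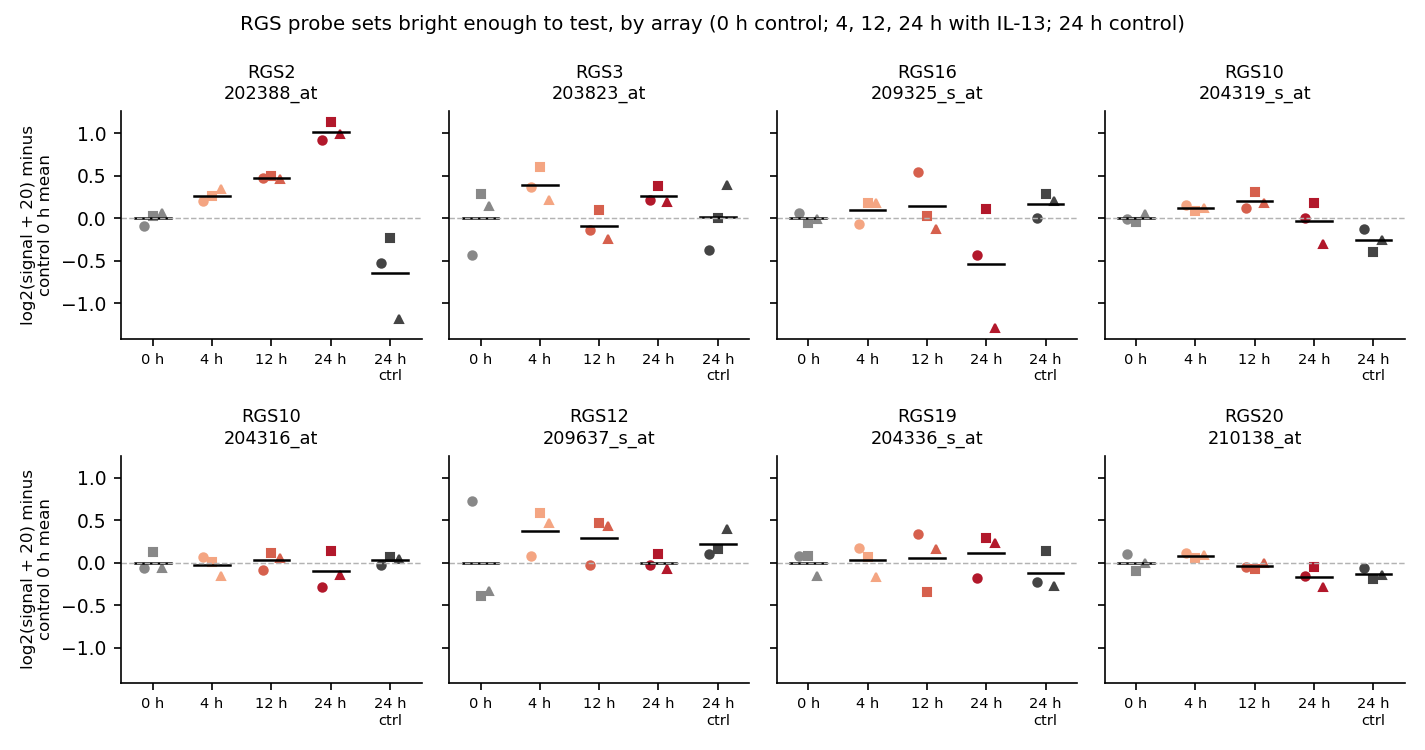
The 8 tested RGS probe sets in log2(signal + 20) after quantile normalization, minus the control 0 h mean of the probe set (vertical axes), for each array by group (horizontal axes, hours, control 24 h at the right); circles, squares and triangles are arrays a, b and c and the line is the group mean. RGS2 climbs over the 3 IL-13 times, and the other 7 stay between -0.54 and 0.40 in group mean.

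Over all tested comparisons no RGS probe set passed the threshold. In control 24 h against control 0 h, 0 of the 7 tested probe sets other than RGS2 were called, against 4.31% of all probe sets, with 1 at an unadjusted p under 0.05 (RGS10), as had 20.1% of all. At 4 h of IL-13 against control 0 h, 0 of 8 were called, against 0.99%, and 0 had an unadjusted p under 0.05 (10.3% of all). At 12 h the count was 0 of 8 against 3.96%, with 1 unadjusted (RGS2; 17.1% of all). At 24 h of IL-13 against control 0 h it was 0 of 7 against 6.2%, with 0 unadjusted (19.7% of all). Between 12 h and 4 h of IL-13 it was 0 of 8 against 0% of all probe sets, of which 1154 (10.4%) had an unadjusted p under 0.05, RGS3 among them. Between 24 h and 12 h it was 0 of 7 against 5.02%, with 1 unadjusted (RGS16; 19.6% of all). Only limma was used for these counts. With shares of calls this low among all probe sets, 7 or 8 probe sets are too few for a count of 0 to set the family apart. The 7 tested probe sets other than RGS2 differed by -0.70 to 0.25 between IL-13 24 h and control 24 h, and the 14 probe sets under the filter by -0.48 to 0.47, against 1.67 for RGS2. RGS2 was chosen by its rise in this comparison, so its place above the others there was set by the choice.

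**Figure D3:**
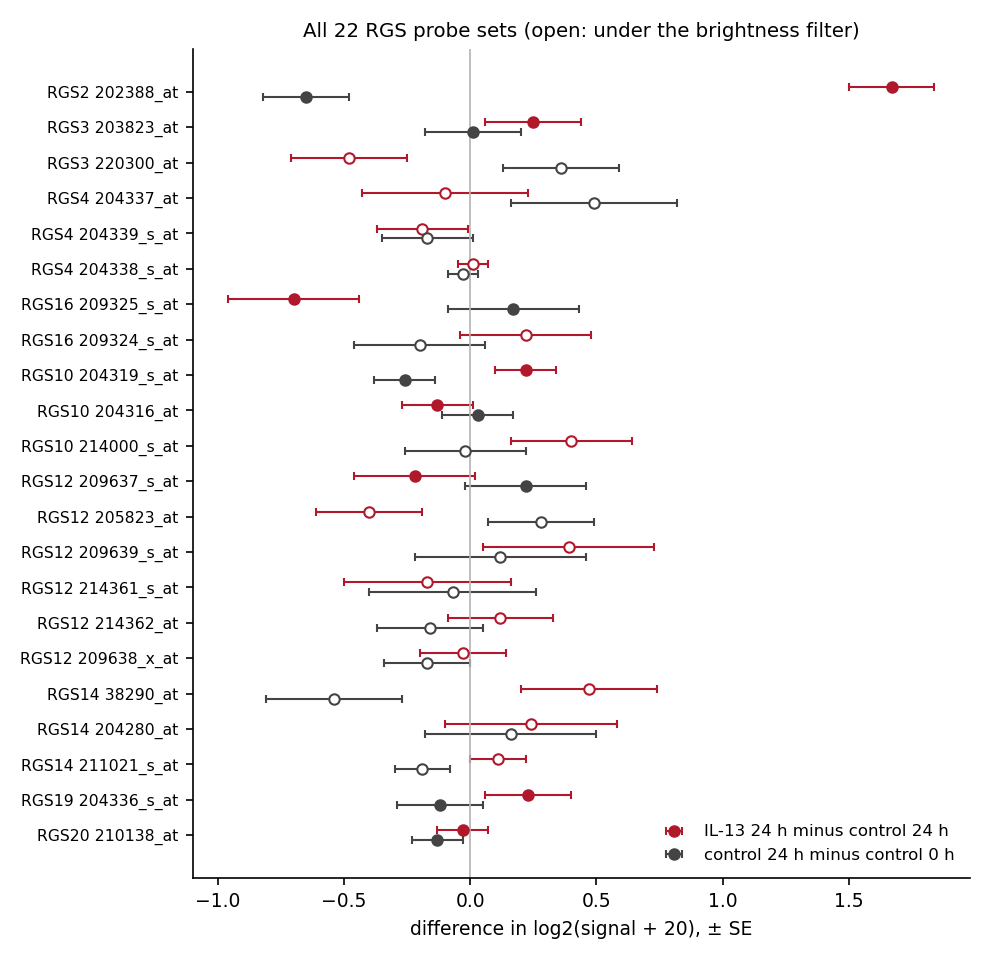
Difference in log2(signal + 20) ± SE (horizontal axis) for each of the 22 RGS probe sets (rows), red for IL-13 24 h minus control 24 h and dark grey for control 24 h minus control 0 h; open symbols are probe sets under the brightness filter. RGS2, which was chosen by the red comparison, has the highest red value, 1.67, and the lowest grey one, -0.65. Both comparisons share the control 24 h arrays.

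A further 12 RGS genes were outside the set, and 8 of them had a probe set with their symbol alone. RGS17, a relative of RGS20, was the only one over the brightness filter; it averaged 61.01 with IL-13 at 24 h and 92.43 in control (-0.33 ± 0.21; limma adjusted p = 0.364). RGS1 (chr1:192575773-192580024) and RGS13 (chr1:192636147-192660311), which lie near RGS2 and are known from lymphocytes, stayed dim, with highest signals of 21.58 and 13.28 on any of the 15 arrays.

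The partners of RGS proteins were counted from lists of the pathway. None of the 14 tested probe sets of 10 receptors for airway mediators, which include histamine and thrombin receptors, was called in any of the 7 comparisons. For IL-13 24 h against control 24 h their median difference was 0.02, against 0 for all tested probe sets. Neither was any of the 14 probe sets of 10 beta and gamma subunit genes called (median 0.08). Of 20 probe sets of 9 alpha subunit genes, 0 were called at 24 h against control 24 h (median -0.13; 6.4% of all), and 1 was lower at 24 h than at 12 h of IL-13 (5.02% of all called, in either direction). That was GNA11, a Gq class subunit on which RGS2 acts, with means on 40562_at of 117.1 at 24 h and 174.5 at 12 h (-0.51 ± 0.13; limma adjusted p = 0.0324); the other 4 tested GNA11 probe sets differed by -0.30 to -0.13 and were not called. The GNA11 call was lost in 8 of 15 other settings, with limma adjusted p of 0.0548 to 0.123, among them those that left out any one of the 12 h arrays, or array b or c of 24 h. GNAQ, the other widely expressed Gq class subunit, was not called at 24 h, with 315.1 with IL-13 and 391.6 in control on 202615_at (-0.33 ± 0.12; limma adjusted p = 0.103). A second tested GNAQ probe set, 211426_x_at, was not called in that comparison either.

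Of 27 probe sets of 16 effector genes, 0 were called at 24 h of IL-13 against control 24 h (median -0.01), against 6.4% of all tested probe sets; 1 each was called in control 24 h against control 0 h and in IL-13 12 h against control 0 h, where 4.31% and 3.96% of all were. PLCB4, a phospholipase C beta activated by Gq, was lower at 12 h of IL-13 (113.9) than at control 0 h (191.3; -0.71 ± 0.18; limma adjusted p = 0.0299), and its second probe set moved by -0.53 (0.0647). The PLCB4 call was lost without any one control 0 h array and without 12 h array a or c, where the difference was -0.47 to -0.75 (limma adjusted p = 0.065 to 0.147). ROCK2, a kinase downstream of RhoA, was higher at control 24 h (347.9) than at control 0 h (240.9; 0.52 ± 0.14; limma adjusted p = 0.0469), a call lost without any one of the 6 arrays (0.0512 to 0.13) and with the median scaling above (0.31; 0.2). A second tested ROCK2 probe set, 211504_x_at, differed by 0.05 ± 0.16, with 231.5 at control 24 h and 222.6 at control 0 h.

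Among 19 probe sets of 11 genes for other RGS-domain proteins, receptor kinases and arrestins, 1 was called for IL-13 24 h against control 24 h (5.26% of the list, against 6.4% of all tested probe sets; median of the list -0.07). It was GRK2, a kinase that carries an RGS domain and phosphorylates active receptors, at 270.7 with IL-13 and 403.8 in control on 38447_at (-0.58 ± 0.16; limma adjusted p = 0.0361). The GRK2 call was lost in 9 of 17 other settings (adjusted p 0.0557 to 0.154), including those that left out array a or c of either group, and 2 dimmer GRK2 probe sets differed by 0.89 and -0.12.

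Genes that cAMP and CREB induce, the pathway whose element shares letters with a motif in the RGS2 window, were counted as a list. Of 13 probe sets of 7 genes, 0 were called at 24 h of IL-13 against control 24 h (median -0.09), against 6.4% of all. Between 24 h and 12 h of IL-13, 2 were called, both higher, against 5.02% of all in either direction, and between 4 h and control 0 h 1, lower, against 0.99% of all. DUSP1, a phosphatase of MAP kinases, was higher at 24 h (3186) than at 12 h of IL-13 (2296), by 0.57 ± 0.11 (limma adjusted p = 0.00403). The DUSP1 mean was 2595 at control 24 h, from which IL-13 24 h differed by 0.27 and was not called. It was lower at 4 h (2156) than at control 0 h (2826; -0.46 ± 0.11; limma adjusted p = 0.0467), a call lost in 10 of 17 other settings (adjusted p 0.0548 to 0.21), including those without any one 4 h array or without 0 h array a or c. These DUSP1 values are from 201041_s_at. A second tested DUSP1 probe set, 201044_x_at, moved by 0.39 between 24 h and 12 h of IL-13 and by -0.37 between 4 h and control 0 h. It was called in neither. PDE4D, which degrades cAMP, was higher at 24 h (713.1) than at 12 h (506.1) on 204491_at by 0.45 ± 0.11 (limma adjusted p = 0.0261). On that probe set the means were 619.6 at control 0 h and 722.6 at control 24 h, and IL-13 24 h differed from control 24 h by -0.09. The PDE4D call was lost in 4 of 17 other settings, those without 12 h array a or c and without 24 h array a or b (0.39 to 0.46; adjusted p 0.073 to 0.121), and its other tested probe sets moved by -0.15 to 0.04.

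The genes with the profile most like RGS2 over the 15 arrays were ATP5F1C (r = 0.962), LAPTM4B (0.93), CD59 (0.929), PSMB9 (0.929) and MSRB1 (0.927). All points share their arrays with RGS2, so these values describe likeness of level and carry no test. CD59, a membrane inhibitor of the complement attack complex, had mean signals of 1143 at control 0 h, 1235, 1661 and 1936 at 4, 12 and 24 h of IL-13 and 749.1 at control 24 h. PSMB9, an immunoproteasome subunit, had 139.7, 138.1, 153.4 and 204.2 at 0, 4, 12 and 24 h of the IL-13 series and 105.6 at control 24 h. ATP5F1C, a subunit of the mitochondrial ATP synthase, was measured by a probe set that can cross-hybridize (205711_x_at). The genes most opposite were DSTNP2 (r = -0.895), CUX1 (-0.892) and TLE1 (-0.878). TLE1, a transcriptional corepressor, had 497.3 at control 0 h, 387.9, 346.8 and 325.1 at 4, 12 and 24 h of IL-13 and 560.9 at control 24 h. DSTNP2 is a pseudogene, also on a cross-hybridizing probe set. For the other RGS probe sets, r with RGS2 was -0.43 (RGS16) to 0.45 (RGS10) among those tested. Among those under the brightness filter it was -0.384 (RGS3) to 0.485 (RGS10). The genes named above are the extremes of all tested probe sets, so lying short of them does not set the RGS probe sets apart.

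**Figure D4:**
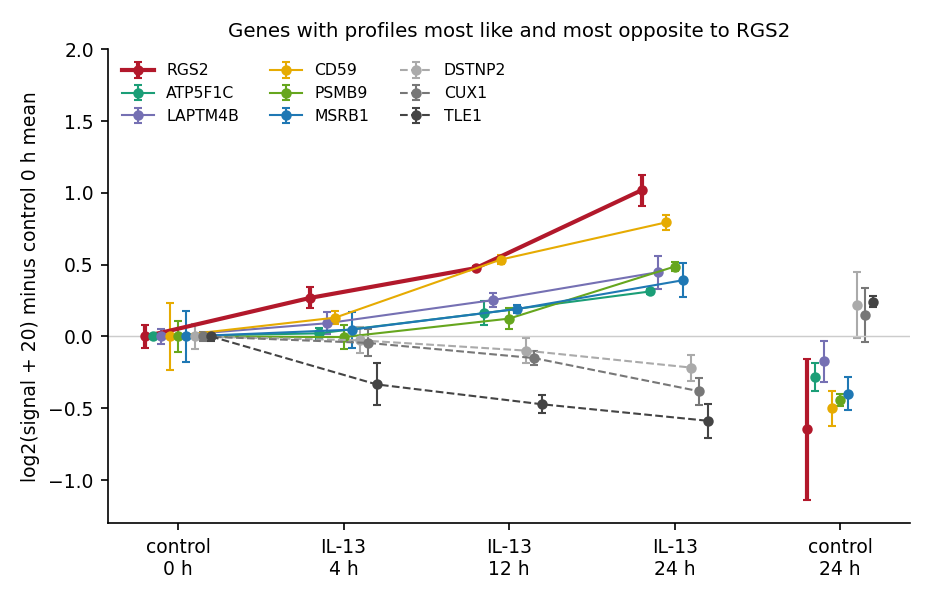
Group means ± SD (n = 3) of log2(signal + 20) after quantile normalization, minus the control 0 h mean (vertical axis), for RGS2, the 5 genes most like it (solid lines) and the 3 most opposite (dashed) by group (horizontal axis); control 24 h is not joined to the IL-13 series. RGS2 spans the widest range of the 9, from -0.65 at control 24 h to 1.02 at IL-13 24 h. RGS2 was chosen by the difference between these groups, so the width of its range follows from the choice.

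Each of the 15 arrays had a trimmed mean signal of 150. Medians were 66.27 to 72.45 on the control 24 h arrays, above all 12 other arrays (56.75 to 65.9), and arrays of a group correlated at 0.972 to 0.979 over all probe sets. The 3' to 5' signal ratio of actin, a measure of RNA integrity, averaged 1.18 ± 0.081 with IL-13 at 24 h and 1.17 ± 0.066 in control at 24 h, against 1 ± 0.065 at control 0 h (SD, n = 3 each); its part in differences from 0 h was not tested. Epithelial markers, which define the labelled cell type, were present, with 5 of 7 over the brightness filter and summed signals of 18650 to 22010 with IL-13 at 24 h and 18200 to 19470 in control. Only 1 of 4 alveolar type 2 markers was over it. Of the 6 fibroblast and smooth muscle markers 1 passed, with sums of 296 to 337.9 with IL-13 at 24 h and 353.7 to 392.1 in control; their part in the RGS values was not tested.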

How the data were processed

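Total RNA from A549 cells was hybridised to 15 Affymetrix arrays. The authors deposited 1 linear intensity value per probe set and array; no source used here names the summary algorithm, and each array's mean after trimming 2% at each end is 150. Probe sets were named by GEO's platform table, 19065 of them with 1 symbol, 1043 with several and 2107 with none, besides 68 controls.

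A pseudocount of 20 was added, log2 taken and arrays quantile normalized, since their medians differed by 0.269. Folds on this scale understate changes of dim genes. A limma 3.58.1 model (R 4.3.3) was fitted to all 15 arrays with a mean for each group (10 residual degrees of freedom, variance trend, two-sided tests, Benjamini-Hochberg over 11107 probe sets, threshold 0.05) for 7 comparisons; the fit was tested on simulated data. An exact permutation test of 3 against 3 arrays cannot go below 0.1. The members, gene lists and tests were chosen with earlier results of these data known. Named genes were all members, genes of the lists that were called, and the 5 most like and 3 most opposite RGS2 by correlation; RGS1, RGS13, RGS17 and GNAQ were named after their values were seen. Alternatives were other scalings, pseudocounts (1 and 60), filters, 1 probe set per gene, other variance models and arrays left out. Arrays limit precision by their number.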

Additional observations from a re-analysis of the deposited data

How the results depend on the processing

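In the comparison that chose RGS2, IL-13 24 h against control 24 h, its difference was 1.40 to 1.88 over 17 alternatives. It was 1.40 with a pseudocount of 60, and 1.40 to 1.88 when arrays were left out in turn. Filters, 1 probe set per gene, the variance trend and the replicate block leave a difference of group means as it is, so they are no check on it. The RGS2 difference between control 24 h and control 0 h, which shares those control 24 h arrays, was -0.86 to -0.38 with arrays left out. The 12 h against 0 h difference (0.39 to 0.52) passed the threshold in the fit of those 2 groups alone (0.48, limma adjusted p = 0.0324), where 1 member was called. With each array scaled to a common median, 1 member (RGS10) was called in control 24 h against control 0 h. For IL-13 24 h against control 0 h and against IL-13 12 h, 0 to 1 members were called with arrays left out, RGS16 being the 1. The RGS2 differences at 4 h from 0 h (0.20 to 0.30) and at 12 h from 4 h (0.17 to 0.25) kept their sign and were not called in any of 17 alternatives each. Of 791 values for the other members, 779 kept their call and size, 9 moved, 3 became calls and 0 reversed. The causes were not tested.

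Counts over all probe sets moved more. For IL-13 24 h against control 24 h they were 711 (386 higher), 1446 (1328 higher) with the median scaling, which moved the median of all differences to 0.13, 433 without the filter, 307 in the fit of the 2 groups alone and 280 (without IL-13 24 h array c) to 761 (without control 24 h array b) with arrays left out. For control 24 h against control 0 h they were 479 (221 higher), 1358 (100 higher) with the median scaling, 293 without the filter, 249 with 1 probe set per gene and 195 (without control 24 h array c) to 431 (without control 24 h array b) with arrays left out. With arrays left out the other comparisons gave 47 to 74 in place of 110 for 4 h against 0 h, 193 to 306 in place of 440 for 12 h against 0 h, 319 to 538 in place of 689 for 24 h against 0 h, 260 to 455 in place of 558 for 24 h against 12 h, and 0 to 4 in place of 0 for 12 h against 4 h. The 12 h against 0 h count was 285 with 1 probe set per gene (440 in the main fit), and the 24 h against 12 h count 368 without the filter (558).

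The replicate letters did not pair the arrays: residual correlations of arrays with the same letter ran from -0.208 to 0.102. Every group holds the same letters a, b and c, so a replicate block can change only the error of a difference, not its size. With the letter as a replicate block, the RGS2 differences were thus those of the main fit. They were 1.67, -0.65, 0.27, 0.48, 1.02, 0.21 and 0.54 for IL-13 24 h against control 24 h, control 24 h against 0 h, IL-13 4, 12 and 24 h against 0 h, 12 h against 4 h and 24 h against 12 h, and 0 members were called. The counts over all probe sets were 541, 377, 83, 369, 584, 1 and 463 in the same order, and the GRK2 call was lost (adjusted p = 0.0572).

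RGS members under the brightness filter have signals near the pseudocount, and their folds are understated there. With 3 arrays a group, the RGS2 difference at 4 h had a confidence interval that included 0.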
